A study of Mus musculus with 12 samples.

Results

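The 10 genes described here are the negative-feedback regulators and Ets-family targets of the ERK pathway: the dual-specificity phosphatases Dusp4, Dusp5, and Dusp6, the Sprouty and Spred proteins Spry1, Spry2, Spry4, and Spred1, the transcription factors Etv4 and Etv5, and Phlda1. They were chosen by symbol, and all 10 were found among the 24421 gene symbols of the count data. Poly(A) RNA was sequenced in bulk from 6 liver tumors and 6 non-tumoral livers of mice on a standard diet, killed at over 18 mo of age. In p21+/Tert mice, the promoter of p21 (Cdkn1a, a cell cycle inhibitor induced in senescent cells) drives Tert, the catalytic subunit of telomerase, and in p21+/TertCi mice it drives TertCi, a catalytically inactive form. Tumor and liver were sampled in 4 mice with active Tert (tumors T-HCA992, T-HCC941, T-HCC663, and T-HCC662) and in 2 mice with inactive TertCi (tumors TCi-HCA984 and TCi-HCC981). HCC stands for hepatocellular carcinoma and HCA for hepatocellular adenoma, each tumor comes from another mouse, and a liver is named here by the tumor of its mouse. All 12 samples carry a transgene, and the livers come from the tumor-bearing mice themselves, so no wild-type liver is part of the comparison. 1 p21+/Tert liver carries an animal number of its own in its label and was taken as that of the T-HCC662 mouse by elimination. Treating it as another mouse in the fit with the mouse as a replicate block changed no call on these genes in tumors against livers. That fit was not repeated for the comparisons by driver class.

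Tumors were placed in classes by the driver mutations the study reports, which the sample labels do not carry. T-HCC662 and T-HCC663 have a Ctnnb1 mutation (Ctnnb1 encodes β-catenin), T-HCC941 an Egfr mutation, and TCi-HCC981 an Hras mutation, whereas T-HCA992 and TCi-HCA984 are placed in none of these classes and are called driver-negative here. Each class therefore rests on 2 tumors, and Egfr and Hras on 1 each. Driver-negative does not mean free of mutations. The study reports frameshifts of the phosphatase genes Ppp1r9a and PtprE in T-HCA992 and an Ep300 mutation in TCi-HCA984. It also describes a MAPK activation signature in T-HCA992, which it proposes could come from the phosphatase mutations. Both driver-negative tumors are adenomas, so the class and the diagnosis cannot be told apart for them, and T-HCC663 is also listed as an adenoma in the histology of the study despite its name. Both Ctnnb1 tumors are p21+/Tert, so the Ctnnb1 class has no p21+/TertCi tumor.

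In the ERK pathway, growth factor receptors such as Egfr load Ras proteins with GTP, and Ras acts through Raf and MEK to phosphorylate the kinases ERK1 and ERK2. Active ERK induces its own inhibitors: Dusp5 and Dusp6 dephosphorylate ERK in the nucleus and the cytoplasm, Dusp4 acts on several nuclear MAP kinases, and Sprouty and Spred proteins restrain signaling at the level of Ras and Raf. Etv4 and Etv5 are Ets-family activators whose genes are derepressed when ERK inactivates the repressor Capicua. Transcripts of these genes are widely read as an output of ERK signaling, but no phosphorylation was measured here.

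Between 14571716 and 26170661 reads per library were counted on genes. Levels are given as CPM, counts per 1000000 of the TMM-scaled library total, and a gene is called changed at a Benjamini-Hochberg adjusted p under 0.05 over all genes tested in edgeR's quasi-likelihood test. None of the 8 hepatocyte markers examined was at 0 in any library. In tumors against livers, 1 of the 8 was called lower, the urea cycle enzyme Ass1 (log2 fold change -2.82 ± 0.407, SE, adjusted p = 0.00158), and the median of the list was -0.40. The β-catenin targets Axin2 and Glul, looked up to check the Ctnnb1 class, were higher in it than in all other samples: Axin2 was at 72.9 and 81.2 CPM in the Ctnnb1 tumors, between 9.86 and 13.8 in the livers, and between 1.46 and 4.15 in the other 4 tumors. Glul was at 9490 and 10300 CPM in the Ctnnb1 tumors, between 1090 and 1830 in the livers, and between 140 and 439 in the other 4 tumors. In such bulk samples, fewer cells of a type and less RNA per cell cannot be told apart.

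Set against the liver of the same mouse, the tumors without a Ctnnb1 mutation shared 1 pattern, and the Ctnnb1 tumors did not follow it. In each of T-HCC941, TCi-HCC981, T-HCA992, and TCi-HCA984, 9 of the 10 genes were higher than in the own liver (all genes: 50% to 51.9%). Phlda1 was the lower one in each. The median differences of these tumors in log2(CPM + 1) were 2.04, 1.18, 1.08, and 1.92, where that of all 15182 genes was between 0 and 0.0327. Some differences were small, such as Spry2 at 1.08 and Phlda1 at 0.867 times the own liver in T-HCA992, and Spry1 at 1.23 times in TCi-HCC981. The Ctnnb1 tumor T-HCC662 had 3 genes higher and 7 lower (median -0.40), and T-HCC663 had 7 higher and 3 lower (median 0.41). With the mean of the 6 livers as the reference, the 9 to 1 split of the other 4 tumors was the same, with Phlda1 the lower gene. Their medians were then 1.36, 1.57, 0.984, and 1.55 in the order above, so T-HCC941 no longer had the largest. The T-HCC941 liver was the lowest of the 6 for Dusp4, Dusp5, Dusp6, Spry1, Spry4, Spred1, and Etv5. Against the mean of the livers, T-HCC662 had 4 genes higher (median -0.0921), Phlda1 among them (0.101 in place of -1.33), and T-HCC663 had a median of 0.24.

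**Figure D1:**
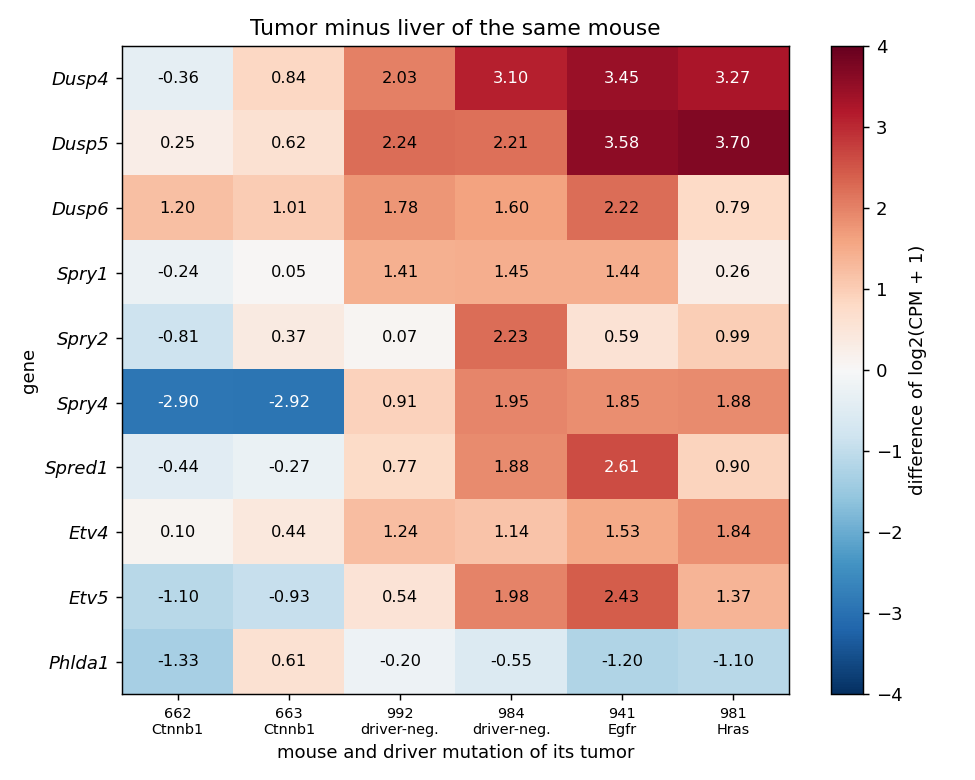
Heat map of the difference in log2(CPM + 1) between each tumor and the liver of the same mouse (columns: mouse number and driver mutation of its tumor; rows: genes; color from -4, blue, to 4, red). The 4 columns of the tumors without a Ctnnb1 mutation are positive for every gene but Phlda1, and Spry4 is at -2.90 and -2.92 in the Ctnnb1 tumors T-HCC662 and T-HCC663.

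Dusp5, the nuclear ERK phosphatase, showed the largest log2 fold change of the 10 genes in the Egfr or Hras and in the driver-negative tumors. It was barely detected in livers, with a lowest, median, and highest level of 0.0758, 0.516, and 0.966 CPM (1 to 18 reads). The Ctnnb1 tumors T-HCC662 and T-HCC663 had 0.36 and 1.23 CPM, the driver-negative tumors T-HCA992 and TCi-HCA984 had 8.31 and 6.3, the Egfr tumor had 11.8, and the Hras tumor had 20.2. All 4 tumors without a Ctnnb1 mutation thus lay above all livers, and the Ctnnb1 tumors overlapped with the livers. Against livers, Dusp5 rose by 4.99 ± 0.598 (log2 fold change ± SE, adjusted p = 0.000354) in the Egfr or Hras tumors and by 3.88 ± 0.594 (adjusted p = 0.00305) in the driver-negative tumors, and it was at 0.67 ± 0.673 (adjusted p = 0.598) in the Ctnnb1 tumors. With so few reads in livers, the size of the fold change is less certain than its direction.

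Dusp5 (ENSMUSG00000034765) lies on chromosome 19 (53529109 to 53542431, plus strand, GRCm38), and the antisense gene AC137853.2 shares 547 of its exonic bases. The sources used here do not give the strand setting of the counting, so reads of such a pair cannot be told apart. Its promoter is shown beside that of Dusp6 because Dusp5 was the only gene, among the 6 with a RefSeq promoter (Dusp5, Dusp6, Spry1, Spry2, Spred1, and Etv5), whose window held a CArG box, the motif bound by serum response factor with Ets-family partners at growth-factor-induced genes. The 2 boxes are adjacent, from -82 to -73 and from -72 to -63 relative to the RefSeq start site, and are in capitals. The Dusp6 window of the same position has none.
Dusp5, chr19:53528995-53529094, plus strand, GRCm38.p6: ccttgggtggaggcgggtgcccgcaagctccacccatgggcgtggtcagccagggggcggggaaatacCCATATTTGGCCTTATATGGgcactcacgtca
Dusp6, chr10:99263081-99263180, plus strand, GRCm38.p6: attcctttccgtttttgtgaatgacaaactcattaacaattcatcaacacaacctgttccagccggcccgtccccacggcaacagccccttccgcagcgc
Over all 32851 RefSeq promoters of 300 bases (250 before and 50 after the start), 1.63% held a CArG box. The other motifs searched on both strands were CCGGAA for Ets factors (14.9% of promoters), TGAATGAA and TGAATGGA for Capicua (1.3% and 1.21%), TGANTCA for AP-1 (7.81%), and TGACGTCA for CREB (1.79%). Among the 7 promoters of the 6 genes, 1 held CCGGAA, that of Spry2, and none held the others. A match describes the sequence alone.

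Dusp4, which acts on nuclear MAP kinases, was also higher in all 4 tumors without a Ctnnb1 mutation than in the livers and the Ctnnb1 tumors. Livers had 0.455, 1.52, and 2.64 CPM (lowest, median, highest), the Ctnnb1 tumors T-HCC662 and T-HCC663 had 1.49 and 5.52, the driver-negative tumors T-HCA992 and TCi-HCA984 had 11 and 17.1, the Egfr tumor had 14.9, and the Hras tumor had 16.3. Only T-HCC662 lay within the range of the livers. Dusp4 rose by 3.33 ± 0.539 (adjusted p = 0.00191) in the Egfr or Hras tumors and by 3.21 ± 0.539 (adjusted p = 0.00501) in the driver-negative tumors, and it was at 1.18 ± 0.571 (adjusted p = 0.234) in the Ctnnb1 tumors.

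Dusp6, the cytoplasmic ERK phosphatase, was the most abundant of the 3 phosphatases in livers per kilobase of exon. Livers had 20.9, 42.3, and 69.7 CPM (lowest, median, highest), the Ctnnb1 tumors T-HCC662 and T-HCC663 had 98 and 68.4, the driver-negative tumors T-HCA992 and TCi-HCA984 had 148 and 149, the Egfr tumor had 101, and the Hras tumor had 121. It was higher in the tumor than in the own liver in 6 of 6 mice, by 1.74-fold in TCi-HCC981 to 4.85-fold in T-HCC941, and the only overlap was that the TCi-HCC981 liver lay just above T-HCC663. Dusp6 rose by 1.35 ± 0.321 (adjusted p = 0.0148) in the Egfr or Hras tumors and by 1.79 ± 0.317 (adjusted p = 0.00678) in the driver-negative tumors. The driver-negative call was lost with the mouse as a replicate block (adjusted p = 0.0587). In the Ctnnb1 tumors Dusp6 was at 0.93 ± 0.327 (adjusted p = 0.107), and without the TCi-HCC981 liver it passed the test there.

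**Figure D2:**
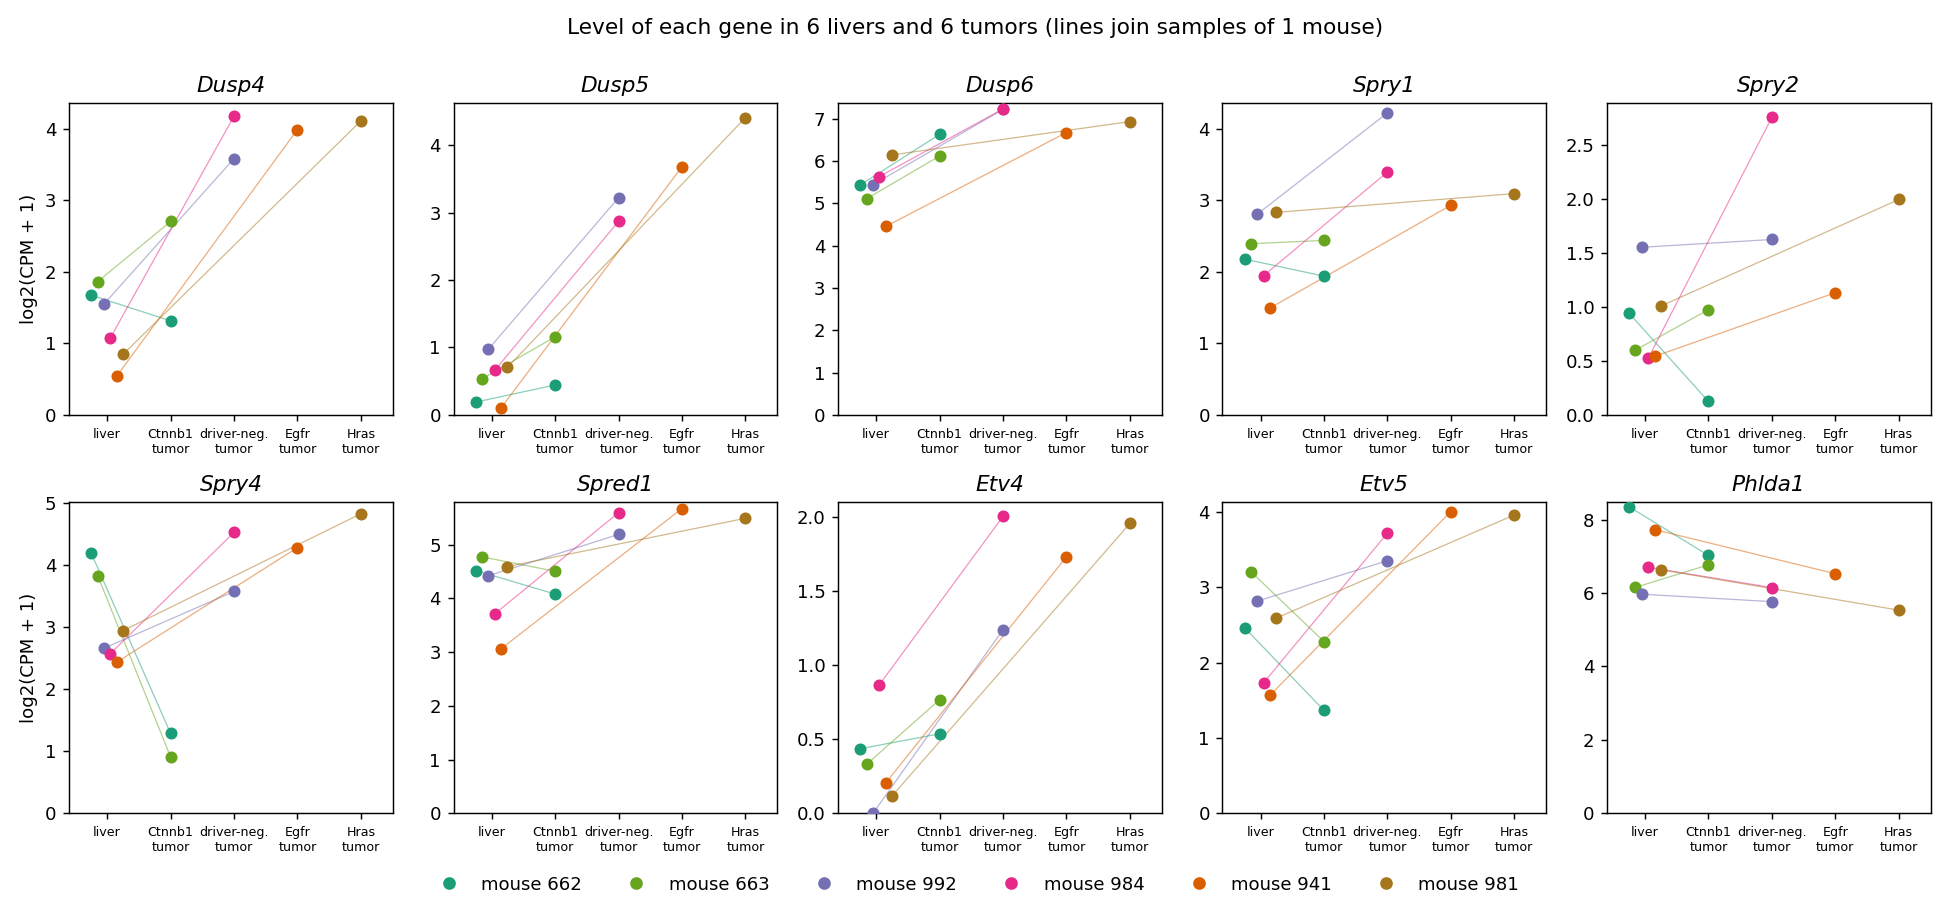
Level of the 10 genes as log2(CPM + 1) in 6 livers and 6 tumors, by driver class of the tumor; points are samples, colors are mice, and lines join the samples of 1 mouse. The 4 tumors without a Ctnnb1 mutation lie above all livers for Dusp4, Dusp5, Dusp6, Spry1, Spred1, Etv4, and Etv5 (all genes: 8.96%), whereas both Ctnnb1 tumors lie below all livers for Spry4 (all genes: 12%).

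Spry4, a Sprouty protein that restrains Ras activation, was below all livers in the Ctnnb1 tumors and above the own liver in the other 4. Livers had 4.4, 6, and 17.2 CPM (lowest, median, highest), and the highest were those of T-HCC662 and T-HCC663 (17.2 and 13.2), the mice with Ctnnb1 tumors. Those tumors had 1.44 and 0.876 CPM (32 and 20 reads), below every liver, which is 0.0836 and 0.0663 times the level of the own liver. The driver-negative tumors T-HCA992 and TCi-HCA984 had 10.9 and 22 CPM, the Egfr tumor had 18.4, and the Hras tumor had 27.3, between 2.05 and 4.46 times the own liver. Spry4 fell in the Ctnnb1 tumors (-2.91 ± 0.657, adjusted p = 0.0208), a call that was lost without either of these tumors. In the Egfr or Hras tumors it was at 1.38 ± 0.495 (adjusted p = 0.0727), whereas in the fit blocked by mouse it rose (2.01 ± 0.331, adjusted p = 0.0148). In the driver-negative tumors Spry4 was not called (0.94 ± 0.504, adjusted p = 0.277, and 1.595 ± 0.331, adjusted p = 0.0657 in the blocked fit). T-HCA992 lay within the range of the livers.

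Spry1, another Sprouty protein, rose in the driver-negative tumors. Livers had 1.82, 3.89, and 6.13 CPM (lowest, median, highest), the Ctnnb1 tumors T-HCC662 and T-HCC663 had 2.84 and 4.43, the driver-negative tumors T-HCA992 and TCi-HCA984 had 17.7 and 9.54, the Egfr tumor had 6.64, and the Hras tumor had 7.55. T-HCA992 stood above the others, and the Egfr tumor exceeded the highest liver by little. The change was 1.72 ± 0.404 (adjusted p = 0.0255) in the driver-negative tumors and was not called with the mouse as a replicate block (adjusted p = 0.107), without T-HCA992, or without the liver of the T-HCC662 mouse. In the Egfr or Hras tumors it was 0.76 ± 0.422 (adjusted p = 0.229), and the difference between these classes did not pass the test (-0.96 ± 0.537, adjusted p = 0.612). The gene Gm42922 on the other strand shares 710 exonic bases with Spry1.

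Spry2, a Sprouty protein, was the least abundant of the 3 Sprouty genes in livers per kilobase of exon and was not called in any class. Livers had 0.436, 0.717, and 1.93 CPM (lowest, median, highest), the Ctnnb1 tumors T-HCC662 and T-HCC663 had 0.0901 (2 reads) and 0.964, the driver-negative tumors T-HCA992 and TCi-HCA984 had 2.08 and 5.74, the Egfr tumor had 1.19, and the Hras tumor had 2.98. The Egfr tumor lay within the range of the livers, and the log2 fold change was 2.14 ± 0.733 (adjusted p = 0.0957) in the driver-negative tumors.

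Spred1, which brings the Ras GTPase-activating protein neurofibromin to the membrane, had 7.36, 21.1, and 26.3 CPM in livers (lowest, median, highest). The Ctnnb1 tumors T-HCC662 and T-HCC663 had 15.9 and 21.7 CPM, the driver-negative tumors T-HCA992 and TCi-HCA984 had 35.5 and 47.3, the Egfr tumor had 49.9, and the Hras tumor had 43.9. The Ctnnb1 tumors were inside the range of the livers (-0.0017 ± 0.381, adjusted p = 0.999) and the other 4 above it. Spred1 rose by 1.31 ± 0.357 (adjusted p = 0.0258) in the Egfr or Hras tumors, though not with the mouse as a replicate block (adjusted p = 0.0509), and was at 1.16 ± 0.359 (adjusted p = 0.0695) in the driver-negative tumors.

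Etv5, an Ets-family activator, moved with the class of the tumor. Livers had 1.97, 4.78, and 8.25 CPM (lowest, median, highest), the Ctnnb1 tumors T-HCC662 and T-HCC663 had 1.58 and 3.86, the driver-negative tumors T-HCA992 and TCi-HCA984 had 9.24 and 12.2, the Egfr tumor had 15.1, and the Hras tumor had 14.6. Both Ctnnb1 tumors were below the own liver, at 0.349 and 0.467 times its level, and the other 4 were above all livers. Etv5 rose by 1.64 ± 0.462 (adjusted p = 0.0304) in the Egfr or Hras tumors and was at 1.19 ± 0.47 (adjusted p = 0.142) in the driver-negative and -0.81 ± 0.529 (adjusted p = 0.391) in the Ctnnb1 tumors, and its call was also lost without the liver of the T-HCC662 mouse. Transcripts of the gene Gm4798 are near-identical to those of Etv5 over at least 100 bases at 95% identity, and how reads of both were assigned is not given in the sources used here.

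Etv4, the closest relative of Etv5 in the list, was almost silent in livers, with 0, 0.205, and 0.824 CPM (lowest, median, highest; 0 to 17 reads). The Ctnnb1 tumors T-HCC662 and T-HCC663 had 0.451 and 0.701 CPM, the driver-negative tumors T-HCA992 and TCi-HCA984 had 1.36 and 3.01, the Egfr tumor had 2.32, and the Hras tumor had 2.88. It was higher than in the own liver in 6 of 6 mice, and the 4 tumors without a Ctnnb1 mutation lay above all livers. Etv4 rose by 3.15 ± 0.838 (adjusted p = 0.0239) in the Egfr or Hras tumors, though not with the mouse as a replicate block (adjusted p = 0.0525), and was at 2.92 ± 0.842 (adjusted p = 0.055) in the driver-negative tumors.

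Phlda1, a pleckstrin homology-like protein whose gene is induced by growth factors, went the other way. Livers had 61.6, 101, and 325 CPM (lowest, median, highest), the Ctnnb1 tumors T-HCC662 and T-HCC663 had 129 and 108, the driver-negative tumors T-HCA992 and TCi-HCA984 had 53.4 and 69.9, the Egfr tumor had 91.1, and the Hras tumor had 45.3. It was higher than in the own liver in 1 of 6 mice, and tumors and livers overlapped. No class was called (-1.24 ± 0.618, adjusted p = 0.24 in the driver-negative and -1.12 ± 0.613, adjusted p = 0.222 in the Egfr or Hras tumors). The gene Gm28592 on the other strand shares 727 exonic bases with it.

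Counted by comparison, 4 of the 10 genes were called higher in all 6 tumors than in the 6 livers (Dusp4, Dusp5, Dusp6, and Etv4), where 6.77% of 13822 genes were called higher. Etv4 kept its call in 4 of the 12 fits that left out 1 library. In the Egfr or Hras tumors 6 were called higher (all genes: 9.57%), in the driver-negative tumors 4 (all genes: 5.67%), and in the Ctnnb1 tumors 1 was called lower, Spry4 (all genes: 3.20%). The median log2 fold changes of the 10 genes were 1.37, 1.76, and -0.10 in these classes, where that of all 15182 genes was -0.03 in each. Without the Egfr or without the Hras tumor, the count in that class fell to 2, Dusp4 and Dusp5, and without T-HCA992 the driver-negative count fell to the same 2 genes. These comparisons share the 6 livers as controls, and a fit without 1 tumor of a class has less power for any gene.

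**Figure D3:**
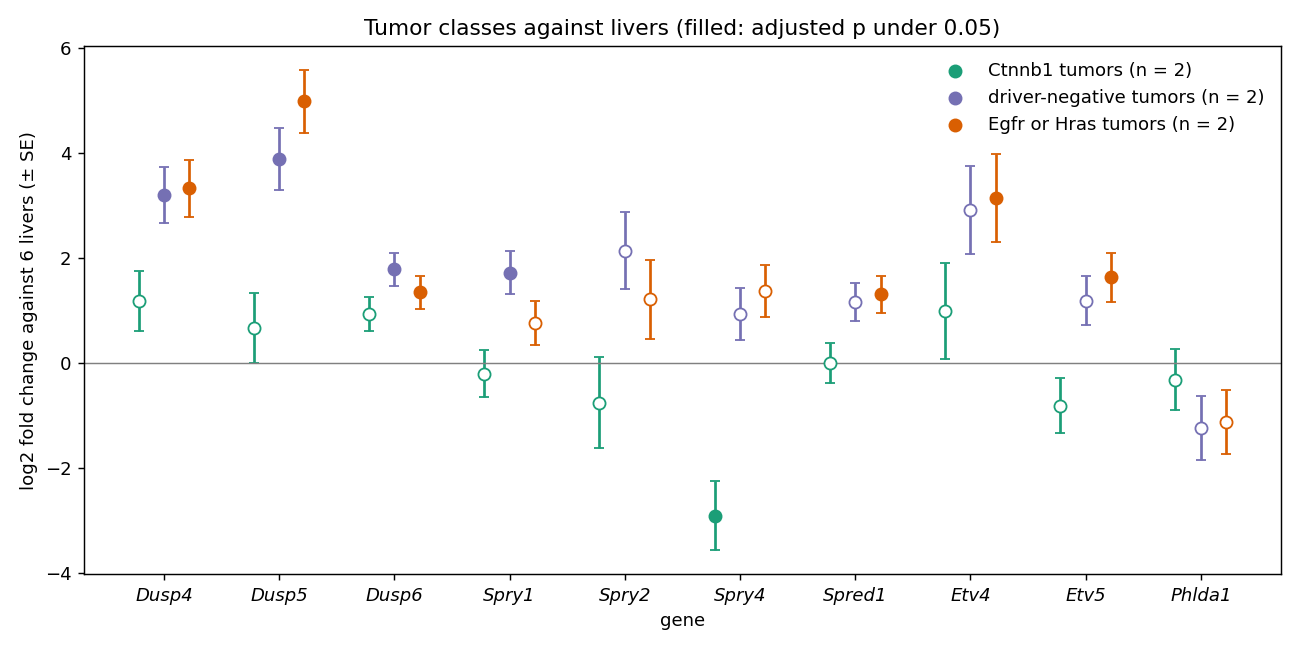
Log2 fold change against 6 livers (± SE, edgeR) of the 10 genes in the Ctnnb1, the driver-negative, and the Egfr or Hras tumors (n = 2 each); filled points have an adjusted p under 0.05. The driver-negative and the Egfr or Hras tumors lie on the same side of 0 for all 10 genes, and the only filled point below 0 is Spry4 in the Ctnnb1 tumors.

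The tumor classes were also compared directly. Against the Ctnnb1 tumors, the Egfr or Hras tumors had 3 of the 10 genes higher (all genes: 4.10%): Spry4 by 4.29 ± 0.752 (adjusted p = 0.00781), Dusp5 by 4.32 ± 0.884 (adjusted p = 0.0155), and Etv5 by 2.44 ± 0.642 (adjusted p = 0.0401). The driver-negative tumors had 2 higher (all genes: 3.31%), Spry4 by 3.85 ± 0.74 (adjusted p = 0.0171) and Dusp5 by 3.22 ± 0.847 (adjusted p = 0.0477). With the mouse as a replicate block, which compares the differences between tumor and own liver, Spry4 kept the call in both (5.76 ± 0.494, adjusted p = 0.0047, and 5.35 ± 0.493, adjusted p = 0.0092), Dusp4 gained it in the Egfr or Hras tumors (4.32 ± 0.793, adjusted p = 0.0464), and Dusp5 (adjusted p = 0.0646 and 0.36) and Etv5 (adjusted p = 0.0663) lost it. Both comparisons share the Ctnnb1 tumors and rest on them: without T-HCC662 none of the 10 genes was called in either. For the Egfr or Hras tumors, 1 gene was left without T-HCC663 (Dusp5) and 1 without TCi-HCC981 (Spry4). For the driver-negative tumors, none was left without T-HCC663 or TCi-HCA984, and Spry4 alone was left without T-HCA992, T-HCC941, TCi-HCC981, or the liver of T-HCC663 or TCi-HCC981.

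The Egfr or Hras and the driver-negative tumors were not separated by these genes. None of the 10 passed the test between them in edgeR or DESeq2, 0 of 10 had an unadjusted p under 0.05 in edgeR, and 0% of all genes were called there. The median log2 difference of the 10 genes was 0.14, with values from -0.96 ± 0.537 for Spry1 to 1.11 ± 0.767 for Dusp5. With 2 tumors per class these errors leave room for differences of over 2-fold.

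The 4 tumors without a Ctnnb1 mutation were also joined in 1 group. This grouping was chosen after the levels had been seen, so its calls are a description. Against livers, 7 of the 10 genes were called higher (all genes: 11.3%), that is all but Spry2 (1.68 ± 0.628, adjusted p = 0.0746), Spry4 (1.16 ± 0.412, adjusted p = 0.0629), and Phlda1 (-1.18 ± 0.47, adjusted p = 0.0916). With the mouse as a replicate block, Spry4 was called too (1.80 ± 0.234, adjusted p = 0.00398). Against the Ctnnb1 tumors, 3 were called higher (all genes: 5.72%), namely Spry4, Dusp5, and Etv5, of which only Spry4 was left without T-HCC662 and only Dusp5 without T-HCC663, whereas 5 were called without the T-HCC941 liver. On levels alone, 7 genes lay above all livers in all 4 tumors, as did 8.96% of all genes, and 9 lay above both Ctnnb1 tumors, as did 19% of all genes.

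None of the 10 genes was called between the genotypes. In p21+/Tert mice, Dusp6 rose in tumors against livers (1.56 ± 0.285, adjusted p = 0.0115) and was the 1 gene of 10 called (all genes: 4.20%). Without T-HCC662, Dusp4 and Dusp5 were called too. In p21+/TertCi mice no gene of the 10 was called, as no gene at all was (0%), although Dusp4 was at 4.10 ± 0.993 (adjusted p = 0.205) and 5 of 10 had an unadjusted p under 0.05. DESeq2 called 2 of them there, Dusp4 and Dusp5, and 4 in p21+/Tert mice. The difference between the genotypes in the tumor effect was called for 0 of 10 genes (all genes: 0%), with 0 at an unadjusted p under 0.05, and the livers of the genotypes differed in 0 of 10 (all genes: 0%), with 1, Dusp6, at an unadjusted p under 0.05. DESeq2 called none of the 10 in either. Driver classes are unevenly spread over the genotypes, so the genotypes were not compared at a matched driver.

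Upstream of these genes, the transcripts of the mutated genes Egfr and Hras were compared with the class. Egfr had 162 CPM in the Egfr-mutated tumor against 379 in its own liver, 199 in the Hras tumor, and 610 and 199 in the driver-negative tumors T-HCA992 and TCi-HCA984. In the Ctnnb1 tumors T-HCC662 and T-HCC663 it was at 50.7 and 48.8 CPM, below all livers (144 to 379), and it fell there (-2.57 ± 0.515, adjusted p = 0.0127). Hras had 46 CPM in the Hras-mutated tumor and 37.4 in its liver, and its change was not called in any class.

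The other genes of the pathway were taken from lists by function. Of all genes, 9.57% were called higher in the Egfr or Hras, 5.67% in the driver-negative, and 5.00% in the Ctnnb1 tumors than in livers, and 8.62%, 2.43%, and 3.20% were called lower. Of 23 genes of the ERK cascade, from adaptors to ribosomal S6 kinases, the number called was close to these shares: in the Egfr or Hras tumors 2 rose, Rps6ka3 (1.11 ± 0.334, adjusted p = 0.0392) and Mapk3, which encodes ERK1 (0.83 ± 0.159, adjusted p = 0.00494), the driver-negative tumors had the same 2 higher, and in the Ctnnb1 tumors Rras and Rras2, which encode Ras-related GTPases, rose (1.02 ± 0.241, adjusted p = 0.0246, and 0.80 ± 0.215, adjusted p = 0.0428). The median log2 fold change of the list was between -0.25 and 0.23 in the 3 classes.

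Among the other negative regulators, Rasal1, a Ras GTPase-activating protein, rose by 6.39 ± 0.638 (adjusted p = 0.000113) in the Egfr or Hras and by 4.21 ± 0.626 (adjusted p = 0.0027) in the driver-negative tumors, and Rasa2 rose in the Egfr or Hras (1.52 ± 0.367, adjusted p = 0.0153) and the Ctnnb1 tumors (1.35 ± 0.369, adjusted p = 0.0441). They were 2 of 8 genes of that list in the Egfr or Hras, 1 of 8 in the driver-negative, and 1 of 8 in the Ctnnb1 tumors (all genes: 9.57%, 5.67%, and 5.00%). Of 7 other dual-specificity MAP kinase phosphatases, 3 rose in the Egfr or Hras tumors (Dusp9, Dusp7, and Dusp10), 2 in the driver-negative tumors (Dusp9 and Dusp10), and 1 in the Ctnnb1 tumors (Dusp10, 1.15 ± 0.266, adjusted p = 0.0224). Dusp9, a further cytoplasmic ERK phosphatase, rose by 6.02 ± 1.1 (adjusted p = 0.0038) and 4.31 ± 1.15 (adjusted p = 0.042) in the former 2 classes. Of 8 other feedback inhibitors tested, Spred2 rose in the Egfr or Hras (1.46 ± 0.402, adjusted p = 0.0278) and driver-negative tumors (1.65 ± 0.399, adjusted p = 0.0283), and Lrig3 fell in the Egfr or Hras (-0.90 ± 0.25, adjusted p = 0.0287) and Ctnnb1 tumors (-1.03 ± 0.252, adjusted p = 0.0293).

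Of 17 Ets factors other than Etv4 and Etv5, 6 rose in the Egfr or Hras, 3 in the driver-negative, and 1 in the Ctnnb1 tumors (all genes: 9.57%, 5.67%, and 5.00%), and the median log2 fold changes were 1.09, 0.49, and -0.03. Ets2 rose in all 3 classes, by 1.66 ± 0.319 (adjusted p = 0.005), 1.68 ± 0.319 (adjusted p = 0.00939), and 1.84 ± 0.317 (adjusted p = 0.0057). Elf3, an epithelial Ets factor, rose by 3.61 ± 0.703 (adjusted p = 0.00538) and 2.96 ± 0.704 (adjusted p = 0.0271) in the Egfr or Hras and driver-negative tumors. Of the 3 genes of the Capicua complex, Atxn1 fell in the Egfr or Hras (-0.68 ± 0.18, adjusted p = 0.0233) and Ctnnb1 tumors (-0.74 ± 0.181, adjusted p = 0.0293), and the other 2 were not called.

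Immediate early genes and delayed targets are further outputs of the pathway. Of 16 immediate early genes, 5 rose in the Egfr or Hras, 4 in the driver-negative, and 3 in the Ctnnb1 tumors (all genes: 9.57%, 5.67%, and 5.00%). Atf3, Ier3, and Klf6 were called in all 3, Klf6 by 1.69 ± 0.255 (adjusted p = 0.00139), 1.78 ± 0.254 (adjusted p = 0.00209), and 2.04 ± 0.252 (adjusted p = 0.000899). Of 15 delayed ERK targets tested, 9, 7, and 5 rose, with medians of 2.35, 2.03, and 1.24. Lif, a cytokine, and Areg, a ligand of Egfr, rose in all 3, Areg by 4.44 ± 0.994 (adjusted p = 0.0108), 4.83 ± 0.98 (adjusted p = 0.0131), and 4.64 ± 0.982 (adjusted p = 0.0161). Hbegf, another Egfr ligand, was among those that differed between classes, higher in the Egfr or Hras than in the Ctnnb1 tumors by 4.58 ± 0.751 (adjusted p = 0.00565).

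**Figure D4:**
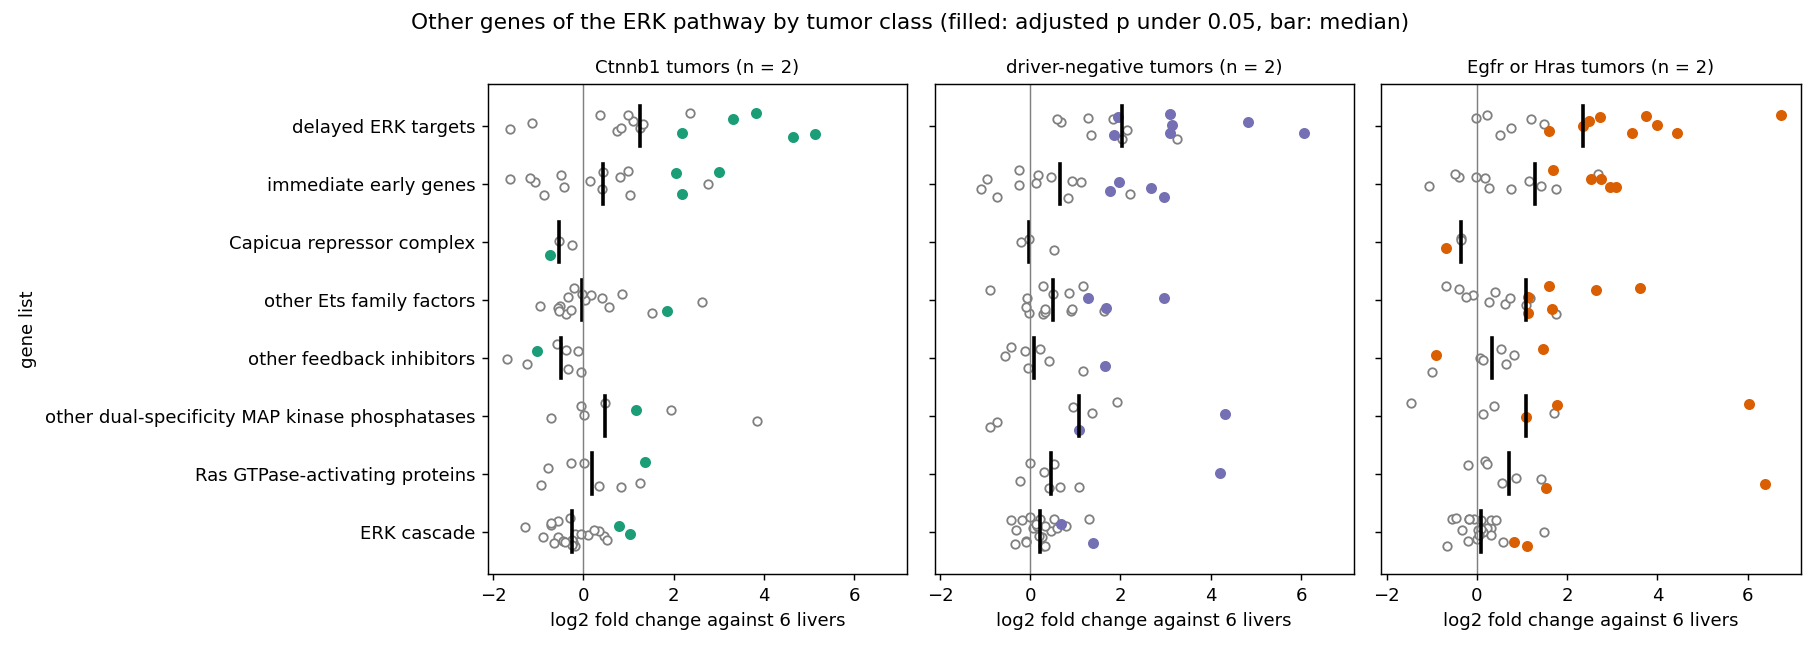
Log2 fold change against 6 livers of the other ERK pathway genes, by list (rows) and tumor class (panels, n = 2 tumors each); each point is a gene, filled where the adjusted p is under 0.05, and the bar is the median of the list. The median of the delayed ERK targets is 2.35 in the Egfr or Hras, 2.03 in the driver-negative, and 1.24 in the Ctnnb1 tumors, and that of the ERK cascade is near 0 in each.

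Per kilobase of exon, the order of the 10 genes differed between livers and tumors. In livers, Phlda1 came first (65.6 ± 46.7 CPM per kilobase, SD, n = 6), Dusp6 followed (13.7 ± 5.2), and Dusp5 (0.192 ± 0.134) and Etv4 (0.0897 ± 0.095) came last. Spred1 (2.73 ± 1.07), Spry4 (1.82 ± 1.12), Spry1 (1.41 ± 0.593), and Etv5 (1.14 ± 0.574) were next in order. Each differed from the next of these 4 by less than its SD. In the 4 tumors without a Ctnnb1 mutation, Dusp6 came first (41.5 ± 7.28, n = 4) and Phlda1 next (29.4 ± 9.18), and Dusp5 (4.72 ± 2.49) stood above Spry4 (4.14 ± 1.45) and Spry1 (3.56 ± 1.73), by less than their SD.

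The genes whose log2 CPM ran most like each of the 10 over the 12 libraries were named as a description, since all points share the difference between tumors and livers. Dusp4 was most like Zfp57 (r = 0.97), Dusp5 like Zfp37 (r = 0.974), and Dusp6 like Col4a1, a basement membrane collagen (r = 0.956). Spry1 was most like Col3a1 (r = 0.97) and Col1a2 (r = 0.943), which encode fibrillar collagens. Spry2 was most like Pacs1 (r = 0.924), Spry4 like Serpina1b (r = 0.965), Spred1 like Myct1 (r = 0.943), Etv4 like Cpd (r = 0.93), Etv5 like Trim68 (r = 0.946), and Phlda1 like Rbbp6 (r = 0.915). None of the 10 genes was among the 3 most like another of them. Among the genes other than Phlda1, r ranged from 0.243 (Dusp6 and Spry4) to 0.918 (Spred1 and Etv5). Phlda1 was negative with each of them, from -0.753 (Dusp5) to -0.255 (Spry4).

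Markers of other liver cells were also compared between the tumor classes. Against the Ctnnb1 tumors, 0 endothelial and 1 stellate cell or fibroblast marker were called higher in each other class (all genes: 4.10% and 3.31%). In the joined 4 tumors, 2 of each list were (all genes: 5.72%). In the 4 tumors without a Ctnnb1 mutation, 3 of 10 endothelial markers (Pecam1, Cdh5, and Tie1) and 3 of 9 markers of stellate cells and fibroblasts (Acta2, Col1a1, and Col1a2) were called higher than in livers (all genes: 11.3%). Pecam1 rose by 1.93 ± 0.301 (adjusted p = 0.00133). The summed level of the endothelial list ranged from 243 to 486 CPM in these tumors, from 137 to 360 in livers, and from 133 to 199 in the Ctnnb1 tumors, and that of the stellate cell and fibroblast list from 181 to 440, from 61.2 to 285, and from 36.7 to 92.3. No marker of either list was at 0 in any library. The macrophage list ranged from 152 to 875, 151 to 1230, and 254 to 1020 CPM in the same order. Of its 9 markers, 1 was called lower in the 4 tumors (all genes called lower: 11.5%). The bile duct list ranged from 85.5 to 1100, 68.5 to 161, and 29.6 to 55.6, and 1 of its 7 markers was called higher in the 4 tumors. Its median log2 fold change was 0.36 there and -0.31 in the Egfr or Hras tumors, and 2 of its markers were at 0 in TCi-HCC981. Spp1 is both in the bile duct list and among the delayed ERK targets. The hepatocyte list ranged from 71800 to 99200, 34200 to 58900, and 18300 to 36300 CPM, but single markers did not follow these sums. In the 4 tumors, Alb, which encodes albumin, was called higher (1.55 ± 0.447, adjusted p = 0.0288), Ass1 was called lower (-2.95 ± 0.483, adjusted p = 0.00171; all genes called lower: 11.5%), and the median of the 8 was -0.36. In the Ctnnb1 tumors, 3 of the 8 were called lower, Cps1, Serpina1c, and Ass1 (all genes: 3.20%), and the median was -0.81. The T cell list ranged from 2.1 to 26.4, 0.775 to 9.07, and 5.86 to 19.9 CPM, the B cell list from 1.48 to 17.7, 0.679 to 40.8, and 2.43 to 4.56, and the neutrophil list from 7.74 to 25.9, 6.15 to 30.6, and 4.6 to 14.9. In the Egfr or Hras tumors alone, 1 endothelial and 0 stellate cell and fibroblast markers were called higher than in livers (all genes: 9.57%). In the driver-negative tumors, 2 of each were (all genes: 5.67%). In the Ctnnb1 tumors, 3 of the stellate list were called lower (all genes: 3.20%). Medians in the Egfr or Hras and driver-negative tumors were 0.804 and -0.915 for macrophages, and 1.51 and -0.863 for T cells. The part of these cell types in the levels of the 10 genes was not tested.

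**Figure D5:**
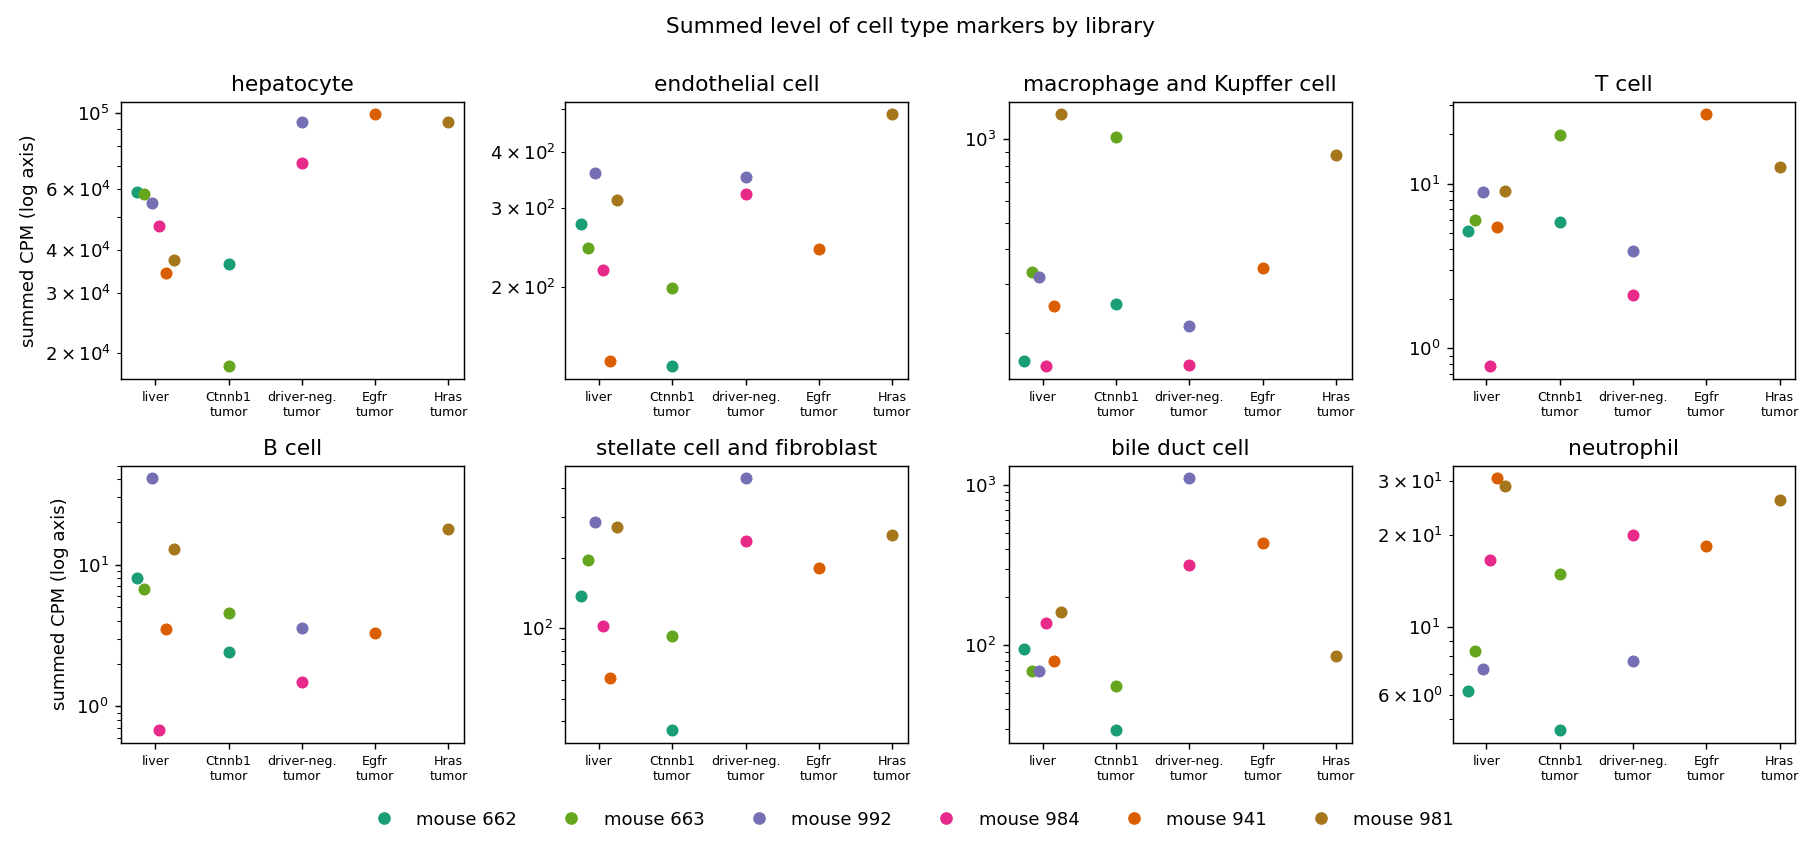
Summed CPM (log axis) of 8 lists of cell type markers in 6 livers and 6 tumors, by driver class; points are libraries and colors are mice. The stellate cell and fibroblast sum is 36.7 and 92.3 CPM in the Ctnnb1 tumors and from 181 to 440 in the other 4 tumors. The hepatocyte sum is above all livers in those 4, although the median log2 fold change of the 8 hepatocyte markers is -0.36 there.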

How the data were processed

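RNA from 12 samples was sequenced as poly(A) libraries, and the groups are those of the labels (genotype and tissue), with the driver class added from the study. The deposited values are whole-number counts of reads per gene, which the authors made with Subread and featureCounts 1.6.4 on mm10 with mCherry added, without normalization. The annotation release, the strand setting, and the handling of reads with several alignments are not given in the sources used here. The members of the list, the pathway and marker lists, and the comparisons were chosen with earlier results of these data known.

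Counts were filtered with filterByExpr, scaled by TMM, and tested with the quasi-likelihood test of edgeR 4.0.16 in R 4.3.3, with Benjamini-Hochberg adjustment over all genes tested and a threshold of 0.05. Tumors against livers used a model of tissue (13822 genes), and classes and genotypes models of all 12 libraries (15182 genes). The SE is the log2 fold change divided by the square root of F. CPM uses TMM over all genes, and differences per mouse use log2(CPM + 1). The study's term for the sequencing run was left out, since the sources used here do not say which library belongs to which run. No 2 libraries of the 66 pairs were identical. Tests were checked on simulated counts.

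Samples were paired by number because tumor and liver come from 1 mouse, except for the T-HCC662 liver, which was matched by elimination. The deviations of tumor and liver from their group means correlated at 0.386, 0.0104, 0.0451, 0.129, 0.511, and 0.511 for the mice of T-HCA992, T-HCC941, T-HCC663, T-HCC662, TCi-HCA984, and TCi-HCC981 (the last 2 form groups of 2, where the r is the same by construction). Alternatives were DESeq2 1.42.0, RLE factors, no filter, the mouse as a replicate block, only the libraries compared, and each library left out. Named genes are all 10 members and, of each list, at most 4 called genes of largest change per comparison, plus Ctnnb1, Egfr, Hras, and the 3 most like genes by Pearson r (log2 CPM, prior count 2). Axin2, Glul, Pecam1, and other markers named for a check were chosen after their values were seen. Positions are from GENCODE vM21 and promoters from RefSeq (GRCm38.p6). Near-identical transcripts were sought with minimap2 2.31.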

Additional observations from a re-analysis of the deposited data

Results flagged for a closer look

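A difference between groups was found for 3 values, each a test of whether the tumor effect, measured against the liver of the same mouse in edgeR with the mouse as a replicate block, differs between driver classes. For Spry4, the effect was 5.76 log2 units higher in the Egfr or Hras than in the Ctnnb1 tumors (SE 0.494, adjusted p = 0.0047) and 5.35 higher in the driver-negative than in the Ctnnb1 tumors (SE 0.493, adjusted p = 0.0092); it was below the own liver in 2 of 2 Ctnnb1 tumors and above it in 4 of 4 others. For Dusp4, the effect was 4.32 log2 units higher in the Egfr or Hras than in the Ctnnb1 tumors (SE 0.793, adjusted p = 0.0464). The T-HCC662 pair in these fits uses the liver matched by elimination, and they were not repeated with it as another mouse. No sample stood far from the others of its group in 40 checks of the 10 genes. These checks covered the livers, the tumors, and the p21+/Tert livers and tumors, with the driver classes mixed. The driver classes and the p21+/TertCi groups hold 2 samples each and were not checked.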

How the results depend on the processing

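Alternatives were DESeq2, RLE factors, no low-count filter, the mouse as a replicate block, only the libraries compared, and each library left out. No gene of the 10 that was called in a comparison, there or under the alternative, changed direction. Of 2179 values of single genes, 53 changed sign, all of them uncalled. With 2 tumors per class, counts of genes called moved. DESeq2 called 6 of the 10 genes in driver-negative against Ctnnb1 tumors, 4 in p21+/Tert tumors against livers, 2 in p21+/TertCi tumors against livers, and 7 in the 4 tumors without a Ctnnb1 mutation against Ctnnb1 tumors, where edgeR called 2, 1, 0, and 3. The replicate block left 2 in driver-negative tumors against livers and 1 in driver-negative against Ctnnb1 tumors, and it changed no other count by over 1.5 times. Only the libraries compared left 1 in Egfr or Hras and 1 in driver-negative against Ctnnb1 tumors. The cause was not tested. Over all genes, DESeq2 called 2677 genes in tumors against livers, 2109 in Ctnnb1 and 2174 in driver-negative tumors against livers, 2413 and 2207 in Egfr or Hras and in driver-negative against Ctnnb1 tumors, 2088 in p21+/Tert tumors against livers, and 3081 in the 4 tumors without a Ctnnb1 mutation against Ctnnb1 tumors, where edgeR called 1476, 1245, 1230, 1225, 875, 986, and 1895. Where edgeR called 0, DESeq2 called 366 in p21+/TertCi tumors against livers, 103 between Egfr or Hras and driver-negative tumors, 14 for the difference between the genotypes, and 37 between their livers. With the replicate block, edgeR called 1801 and 237 genes in Egfr or Hras (2762 without the block) and driver-negative tumors against livers, 317 and 109 in the same classes against Ctnnb1 tumors, and 441 in the 4 tumors against Ctnnb1 tumors, and with only the libraries compared 340, 228, and 839 in these last 3. For p21+/TertCi tumors against livers, RLE factors gave 1 gene and no filter gave 2.

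Leaving out each library in turn gave 3 to 5 genes for tumors against livers, 2 to 6 for Egfr or Hras, 0 to 2 for Ctnnb1, and 2 to 5 for driver-negative tumors against livers, 0 to 4 and 0 to 3 for Egfr or Hras and driver-negative against Ctnnb1 tumors, 1 to 3 for p21+/Tert tumors against livers, and 5 to 8 and 1 to 5 for the 4 tumors without a Ctnnb1 mutation against livers and against Ctnnb1 tumors. Where a class kept 1 tumor, it was assumed to vary like the other groups. DESeq2 size factors or unscaled totals moved no mean level by more than its SD. Of 60 differences between tumor and own liver, 20 moved by more than the SD of the livers with the mean of the 6 livers as reference and 20 with a pseudocount of 0.1 CPM; with either, 9 of 10 genes were higher in each of the 4 tumors without a Ctnnb1 mutation. Low reads limit Dusp5, Etv4, and Spry2 in livers.

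The values that changed sign were these. Spred1 in Ctnnb1 tumors against livers moved from -0.0017 to 0.0117 with DESeq2, 0.0113 with RLE factors, and 0.0201 without a filter. The replicate block gave -0.816 for Phlda1 between Egfr or Hras and driver-negative tumors, -0.0057 for Spry2 in p21+/Tert tumors against livers, and -0.22 for Spry1 and 0.295 for Phlda1 in the difference between the genotypes. With each library left out, Ctnnb1 tumors against livers ranged from -0.0296 to 1.83 for Dusp4, -0.44 to 1.28 for Dusp5, -0.54 to 0.0748 for Spry1, -3.20 to 0.098 for Spry2, -0.22 to 0.20 for Spred1, and -0.47 to 0.0928 for Phlda1. Egfr or Hras against driver-negative tumors ranged from -0.17 to 0.49 for Dusp4, -0.0543 to 0.38 for Spred1, -0.25 to 0.91 for Etv4, and -0.47 to 0.52 for Phlda1. p21+/Tert tumors against livers ranged from -0.39 to 0.77 for Spry2, -1.19 to 0.0329 for Spry4, and -0.0934 to 0.83 for Etv5. The difference between the genotypes ranged from -1.46 to 0.29 for Dusp5, -0.69 to 0.53 for Spry1, -2.40 to 0.83 for Etv4, and -0.31 to 0.53 for Phlda1, and livers between genotypes from -0.66 to 0.42 for Spry1, -0.19 to 1.10 for Spry2, -0.29 to 0.62 for Spred1, and -2.13 to 1.09 for Etv4.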
